A study of Mus musculus with 12 samples.

Results

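The metabolic receptor genes described here are Nr1h4, Nr0b2, Nr1i2, Nr1i3, Nr1h3, Rxra, Ahr, Esrra, Thrb and Rora, chosen as a list by gene symbol. Their values were not used to pick them, but earlier results of these data were known. Of these 10 genes, 9 are measured by a probe set with their symbol alone, out of 18820 genes measured in this way. Nr1i3, which encodes the xenobiotic receptor CAR, shares its 1 probe set with a neighbouring symbol in the platform annotation, so it is given no value. Each of the other 9 has 1 probe set.

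RNA was measured on 12 arrays from whole liver and from primary hepatocytes, the main metabolic cells of the organ, from male C57BL/6 mice aged 7 to 8 weeks. WT mice carried floxed Jnk1 and intact Jnk2 (Jnk1f/fJnk2+/+) and were littermates. The labels do not say whether they carried Cre. JNKΔhepa mice lacked Jnk2 (Mapk9) in the whole animal and Jnk1 (Mapk8) where Cre, driven by the albumin promoter and alpha-fetoprotein enhancer elements, was active. The 4 groups held 3 arrays each, and the same 6 mice gave a liver and a hepatocyte sample. Mice were untreated and had free access to chow.

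Nuclear receptors are transcription factors that small lipophilic molecules switch on: bile acids for FXR (Nr1h4), oxysterols for LXR-alpha (Nr1h3), foreign chemicals for PXR (Nr1i2) and CAR (Nr1i3), and thyroid hormone for TR-beta (Thrb). Most of them bind DNA paired with the retinoid X receptor (Rxra), while SHP (Nr0b2) has no DNA-binding domain and represses genes by binding to other receptors. AHR (Ahr), the dioxin receptor, belongs to another protein family, bHLH-PAS, and is grouped here because it serves the same detoxification programme in liver.

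The promoters of the FXR and SHP genes are shown because Nr0b2 was the measured member that stood highest in hepatocytes relative to liver, while Nr1h4, whose product is known to induce it, did not. Each window is the 250 bases before the RefSeq transcription start (GRCm38.p6), written 5′ to 3′ on the gene's strand. Capitals mark AGGTCA, the core that nuclear receptors bind, and TCAAGG, the core bound by LRH-1 (Nr5a2), on either strand. TCAAGG was chosen after the Nr0b2 sequence had been read.
Nr0b2, chr4:133553126-133553375, plus strand: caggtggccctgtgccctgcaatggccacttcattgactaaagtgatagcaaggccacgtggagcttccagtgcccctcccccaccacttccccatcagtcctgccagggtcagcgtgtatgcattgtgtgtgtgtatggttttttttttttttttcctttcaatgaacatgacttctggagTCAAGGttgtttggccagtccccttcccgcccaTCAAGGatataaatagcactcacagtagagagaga
Nr1h4, chr10:89506659-89506908, minus strand: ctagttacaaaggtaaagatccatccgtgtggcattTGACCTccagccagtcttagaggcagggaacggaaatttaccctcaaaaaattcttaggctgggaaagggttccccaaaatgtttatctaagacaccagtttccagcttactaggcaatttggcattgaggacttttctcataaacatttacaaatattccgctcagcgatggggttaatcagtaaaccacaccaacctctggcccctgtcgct
The Nr0b2 window holds TCAAGG at bases 68 to 63 and at bases 35 to 30 before the start, and the Nr1h4 window holds TGACCT, the reverse complement of AGGTCA, at bases 214 to 209. RefSeq windows were at hand for 9 of the 10 genes. Counting a gene with several starts once, AGGTCA occurred in those of 3 genes (Nr1h4, Rxra and Thrb) and TCAAGG in those of 2 (Nr0b2 and Thrb, where it overlaps AGGTCA). Of all 32851 windows of this length, 14% and 12.5% held these letters. Shares are given per window, while Nr1h3, Rxra and Thrb had 2 windows each, so gene counts cannot be set directly against them. The letters of an AP-1 site, TGANTCA, occurred on either strand in the window of Nr1i3 alone, against 6.75% of all windows. These matches describe letters, not bound sites.

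The deposited values are log2 expression after RMA, a method that corrects, normalises and summarises the probes of a probe set. The median of an array lay between 4.092 and 4.116 for liver samples but between 3.222 and 3.279 for hepatocyte samples, so the preparations do not appear to be on a common scale. The genotype comparisons lie within a preparation and do not cross this gap. Arrays of a group correlated at r = 0.9865 to 0.9928 over the probe sets. All 10 measured hepatocyte markers, albumin among them, read at least 9.27 on every array, above 95.3% or more of the probe sets. Mapk9 read 8.59 to 8.69 in WT and 2.33 to 3.02 in JNKΔhepa liver (limma adjusted p = 4.02e-10), and 7.74 to 8.10 and 2.29 to 2.62 in hepatocytes (1.05e-09). Mapk8 read 6.37 to 6.40 in WT and 5.93 to 6.07 in JNKΔhepa liver (0.027), and 5.51 to 5.66 and 4.95 to 5.01 in hepatocytes (0.00183). The part of Mapk8 removed is not named in the labels, so its probe set may lie outside it.

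The first comparison asked whether the receptors' transcripts in whole liver differed between JNKΔhepa and WT mice. JNKΔhepa mice lacked Jnk2 in the whole animal, so the effect of losing Jnk1 is not separated from it. No call was made: 0 of the 9 receptor genes passed a Benjamini-Hochberg adjusted p under 0.05 in limma, a test fitted across all genes, where 0.925% of all genes passed. At an unadjusted p under 0.05 there was 1 receptor gene, Nr0b2, against 12.5% of all genes. The median log2 difference (JNKΔhepa minus WT) was 0.00145 over the 9 genes and 0.0155 over all genes. WT and JNKΔhepa arrays overlapped for all 9. Among all genes 20.4% were without overlap, 12.9% with JNKΔhepa higher. In bulk samples, fewer cells of a type and less RNA per cell cannot be told apart.

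Among the 9 receptor genes, Nr0b2, which encodes the repressor SHP of the bile acid pathway, showed the largest difference in liver. Its WT livers read 7.63, 7.77 and 7.54 on the log2 scale and its JNKΔhepa livers 7.27, 7.65 and 6.64 for replicates 1, 2 and 3. JNKΔhepa replicate 2 lay inside the WT range replicates 1 and 3 lay below it, and replicate 3 was the lowest of the 6 livers. The log2 difference was −0.46 (SE 0.188, 95% interval −0.86 to −0.05, limma adjusted p = 0.332), and the spread between the JNKΔhepa livers (SD 0.506, n = 3) was wider than that between the WT livers (SD 0.116). Without JNKΔhepa replicate 3 the difference was −0.186 (adjusted p = 0.704), and without JNKΔhepa replicate 2 it was −0.687 (adjusted p = 0.104). Nr1h4 read 9.32, 9.21 and 9.38 in WT against 9.29, 9.37 and 9.56 in JNKΔhepa liver, and the genotypes overlapped (log2 difference 0.10, 95% interval −0.13 to 0.34).

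The xenobiotic sensors did not separate by genotype in liver. Nr1i2, which encodes PXR, the receptor behind drug-induced Cyp3a expression, read 8.56, 8.13 and 8.76 in WT against 8.44, 8.44 and 8.56 in JNKΔhepa. Its JNKΔhepa livers all fell inside the WT range, and the 95% interval of the difference ran from −0.31 to 0.31. Ahr read 9.10, 8.66 and 8.51 in WT against 8.86, 8.90 and 8.89 in JNKΔhepa. Here WT replicate 1 was the highest array and the JNKΔhepa livers were close together (log2 difference 0.12, 95% interval −0.25 to 0.50).

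The remaining receptors had narrower intervals. Nr1h3, the oxysterol receptor that drives cholesterol efflux and lipogenic genes, read 9.33 to 9.39 in WT and 9.24 to 9.39 in JNKΔhepa liver. Rxra, the shared partner, read 9.95 to 10.01 in WT and 9.95 to 10.14 in JNKΔhepa liver. Esrra, an orphan receptor of mitochondrial genes, read 5.80 to 6.09 and 5.81 to 5.99. Thrb read 7.93 to 8.04 and 7.87 to 7.96, and Rora, an orphan receptor that activates clock genes, 8.97 to 9.08 and 8.74 to 8.99. The genotypes overlapped in each of these 5 genes. Their 95% intervals ran from −0.23 to 0.14 for Nr1h3, −0.10 to 0.29 for Rxra, −0.20 to 0.21 for Esrra, −0.32 to 0.14 for Thrb and −0.33 to 0.06 for Rora. Over the 9 genes, the fold change farthest from 1 that its interval still allowed ranged from 1.16-fold for Esrra to 1.82-fold for Nr0b2.

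**Figure D1:**
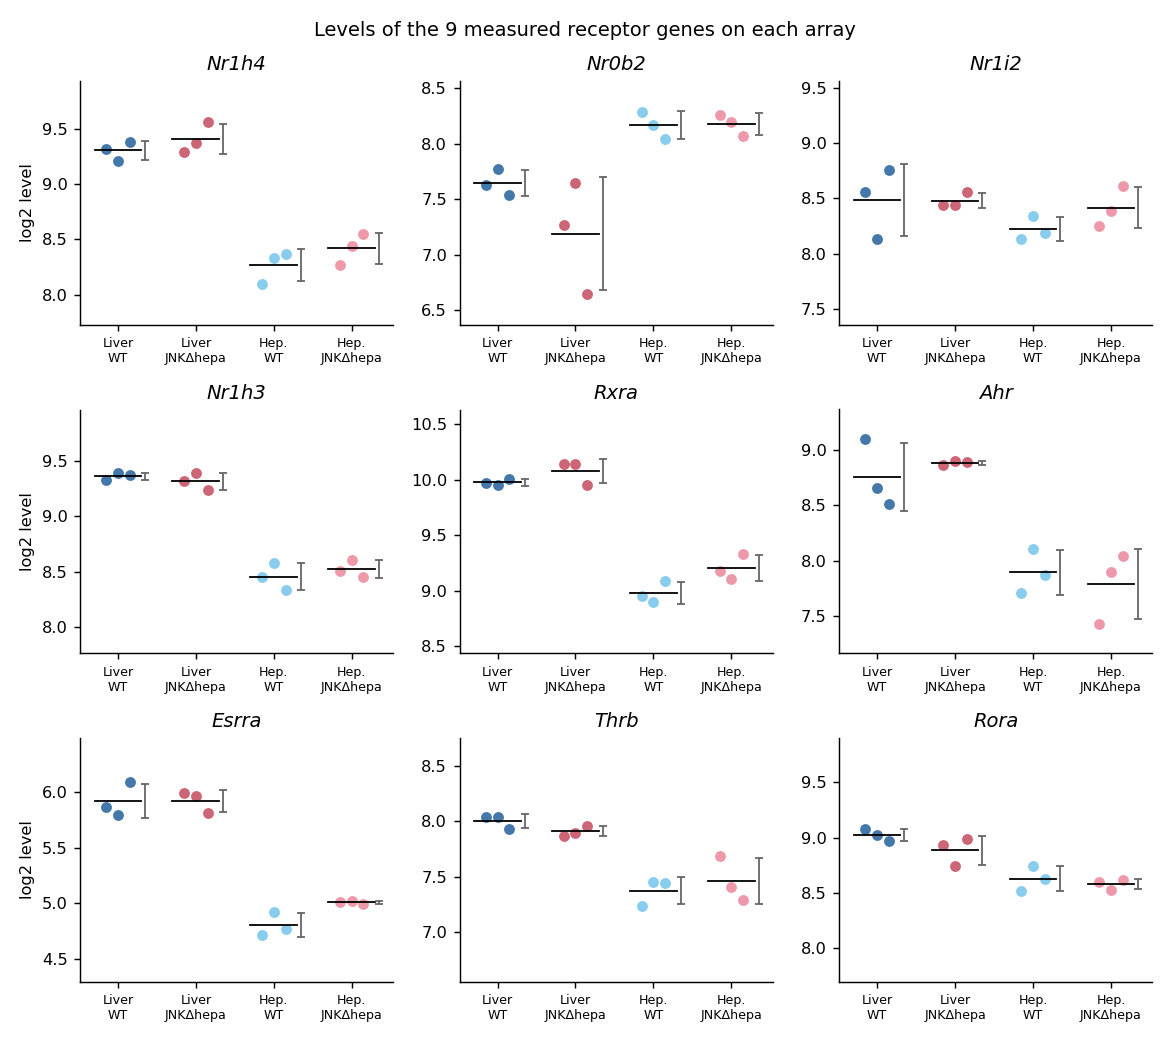
Log2 level of each of the 9 measured receptor genes on each of the 12 arrays, by group, with replicates 1 to 3 from left to right; horizontal bars are group means and the brackets beside them are ± SD (n = 3), and every panel spans the same range. Liver and hepatocyte arrays differ in their medians, so the gap between the preparations is not on a common scale; within a preparation the genotypes overlap except for Rxra and Esrra in hepatocytes.

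In primary hepatocytes 0 of the 9 receptor genes passed in limma, where 0.84% of all genes did. At an unadjusted p under 0.05 there was again 1, Rxra, against 12.6% of all genes. The median log2 difference was 0.0886 over the 9 genes, with 7 above 0, and −0.0018 over all genes. WT and JNKΔhepa arrays were without overlap for 2 of the 9, Rxra and Esrra, which were higher in JNKΔhepa, against 14.7% of all genes in either direction and 7.36% higher in JNKΔhepa.

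Rxra read 8.95, 8.90 and 9.09 in WT against 9.18, 9.10 and 9.33 in JNKΔhepa hepatocytes. The lowest JNKΔhepa array was just above the highest WT array. The log2 difference was 0.22 (SE 0.0904, 95% interval 0.03 to 0.42, limma adjusted p = 0.33), or 1.17-fold. Esrra read 4.71, 4.92 and 4.77 in WT against 5.01, 5.02 and 4.99 in JNKΔhepa hepatocytes. The JNKΔhepa arrays were close together and all above WT, with a log2 difference of 0.20 (SE 0.0951, limma adjusted p = 0.404). Neither difference passed the adjusted threshold.

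Nr0b2, which had the largest difference of the 9 receptor genes in liver, read 8.29, 8.17 and 8.04 in WT against 8.26, 8.20 and 8.07 in JNKΔhepa hepatocytes. These values overlapped throughout, and the difference was 0.01 (95% interval −0.40 to 0.42). Nr1h4 read 8.10 to 8.37 in WT and 8.27 to 8.55 in JNKΔhepa, a difference of 0.15 (95% interval −0.08 to 0.39). Nr1i2 read 8.13 to 8.34 and 8.25 to 8.61, a difference of 0.20 (95% interval −0.11 to 0.51). The genotypes overlapped for both genes. Ahr read 7.71, 8.11 and 7.87 in WT against 7.43, 7.90 and 8.04 in JNKΔhepa, and its JNKΔhepa arrays spanned more than the whole difference of −0.11 (95% interval −0.48 to 0.27). Nr1h3 (0.06), Thrb (0.09) and Rora (−0.05) had log2 differences of less than 0.1 in size, with 95% intervals within −0.24 and 0.31. Over the 9 genes the farthest fold change inside an interval ranged from 1.18-fold for Rora to 1.42-fold for Nr1i2.

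Most Kupffer, endothelial and stellate markers read lower in JNKΔhepa than in WT hepatocyte preparations, though few passed. All 12 Kupffer cell and macrophage markers were below 0 in JNKΔhepa minus WT (median log2 difference −0.758), as were all 12 sinusoidal endothelial markers (median −0.552) and 11 of 12 stellate cell markers (median −0.24). Among them 1 Kupffer marker, C1qb, passed limma over all genes, where 0.84% of all genes did. Of the endothelial and stellate markers 0 passed. Over all genes, 9304 of 18820 were above 0 (median −0.0018). Markers of a cell type were read on the same arrays, so their counts are not independent. The log2 of the summed linear signal of the Kupffer list was 9.65 to 10.45 in WT and at most 9.65 in JNKΔhepa hepatocytes, that of the endothelial list 10.63 to 11.04 and 10.19 to 10.75, and that of the stellate list 8.98 to 9.38 and 8.43 to 8.95. The Kupffer ranges met at 9.65, the endothelial ranges overlapped and the stellate ranges did not. At most 1 Kupffer, 0 endothelial and 5 stellate markers read below the array median in either genotype. All 10 hepatocyte markers were above 0, with a median of 0.0383. Of 8 cholangiocyte and 9 lymphocyte markers, 2 and 5 were below 0. The part of these shifts in the receptor differences was not tested.

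Whether the genotype difference itself changed between the preparations was tested with an interaction term, the hepatocyte difference minus the liver difference. None of the 9 receptor genes passed (limma adjusted p 0.758 to 0.976; 0 at an unadjusted p under 0.05, against 7.22% of all genes), where 0.0106% of all genes did. Nr0b2 had the largest value at 0.47 (95% interval −0.11 to 1.04) and Nr1h4 the smallest at 0.05 (95% interval −0.28 to 0.38). The lower liver and level hepatocyte values of Nr0b2 therefore did not pass as a difference between the preparations.

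**Figure D2:**
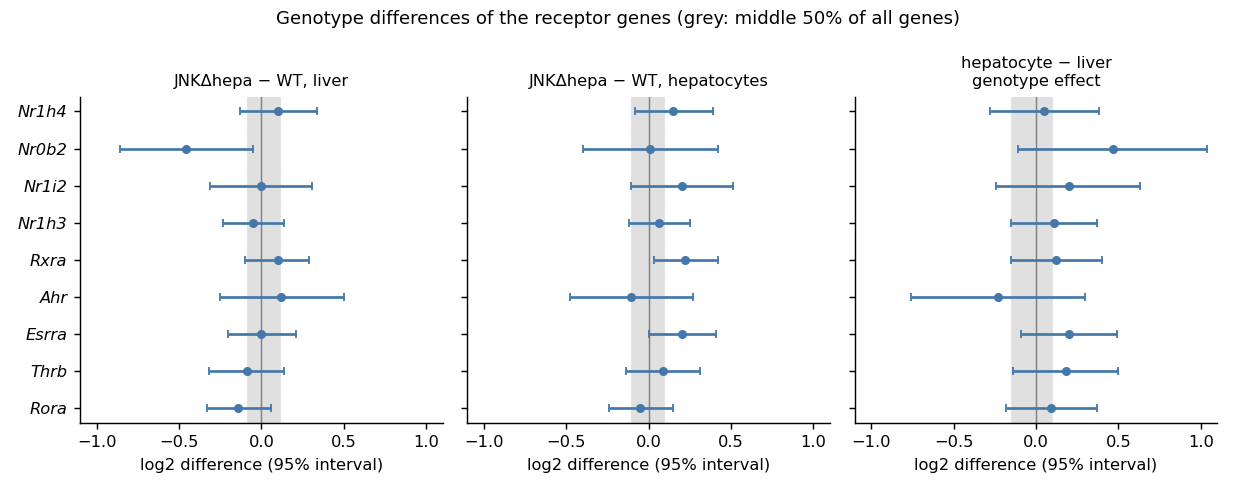
Log2 difference with its 95% interval from limma for each of the 9 receptor genes: JNKΔhepa minus WT in liver (left), the same in hepatocytes (middle) and the hepatocyte minus the liver difference (right); grey bands hold the middle 50% of all genes. Nr0b2 lies farthest from 0 in liver at −0.46 and in the interaction at 0.47, and Rxra in hepatocytes at 0.22.

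The other comparison set hepatocytes against the liver of the same mice. As deposited, almost every gene read lower in hepatocytes: the median log2 difference over all genes was −0.585, 91.5% of all genes were called lower and 0.776% higher. Of the 9 receptor genes 7 were called lower, 1 was called higher and Nr1i2 was not called. Differences are therefore also given relative to that median and by their rank among all genes.

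Nr0b2 was the gene called higher. In WT mice 1, 2 and 3 its hepatocytes read 0.66, 0.40 and 0.50 above the liver, and in JNKΔhepa mice 0.99, 0.56 and 1.42 above it. It was thus higher in 6 of 6 mice, and the largest value came from JNKΔhepa mouse 3, whose liver had the lowest Nr0b2 reading. The mean difference as deposited was 0.76 (SE 0.133, limma adjusted p = 0.00012, from a fit that did not pair arrays by mouse), which is 1.34 above the median gene. It exceeded that of 99.8% of all genes.

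The 3 other scalings all raise hepatocytes relative to liver, so a gene that was higher as deposited could only move further up, and its direction under them is no added support. With arrays centred on the median of all probe sets the difference was 1.61 (adjusted p = 7.65e-07), with arrays centred on the median of the genes tested 1.79 (adjusted p = 1.42e-07), and after quantile normalisation over all 12 arrays 1.38 (adjusted p = 6.82e-06), higher in 6 of 6 mice each time. The share of all genes called higher was 59.6%, 76.2% and 23.1% under these scalings, and the share called lower 12.5%, 8.52% and 22%. The rank of Nr0b2, above 99.8% of all genes, cannot change under either centring, which shifts all genes alike. Only quantile normalisation could move it, and there it was above 99.8% as well.

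For each of the other 8 receptor genes the sign turned under 1 or more of these scalings. Nr1h4 was 1.01 lower in hepatocytes as deposited (−0.43 relative to the median gene, above 14.3% of all genes), −0.16 after centring on all probe sets, 0.02 after centring on the genes tested and −0.46 after quantile normalisation. Rxra (−0.94), Ahr (−0.98), Esrra (−1.02) and Nr1h3 (−0.85) likewise lay below the median gene as deposited, by 0.35, 0.40, 0.43 and 0.26. Nr1i2 (−0.16), Rora (−0.35) and Thrb (−0.54) lay above it, by 0.42, 0.23 and 0.05. Nr1i2 exceeded 91.6% to 93.2% of all genes, Rora 76.2% to 79.6% and Thrb 56.1% to 60.7% under the 4 scalings. Nr1h4, Rxra, Ahr, Esrra and Nr1h3 each exceeded 9.9% to 22.6%. The centrings shift all genes alike, so only quantile normalisation could move these ranks. The signs of these 8 genes flipped with the scaling, so only the ranks are described.

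Markers of other liver cells were also lower in the hepatocyte preparations. The log2 summed Kupffer signal was 11.78 to 12.29 in liver and at most 10.45 in hepatocytes as deposited, the endothelial signal 12.24 to 12.49 and 10.19 to 11.04, and the stellate signal 11.32 to 11.62 and 8.43 to 9.38. The hepatocyte marker signal was 15.31 to 15.39 and 15.08 to 15.25. The lymphocyte signal was 7.23 to 7.67 and 5.66 to 5.86, with 7 of 9 markers below the array median on every hepatocyte array. The cholangiocyte signal was 7.06 to 7.33 and 6.55 to 6.65, a gap near the all-gene median of −0.585, with 6 to 7 of 8 markers below the array median in both preparations. The part of these cells, and of the isolation itself, in the receptor differences was not tested.

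**Figure D3:**
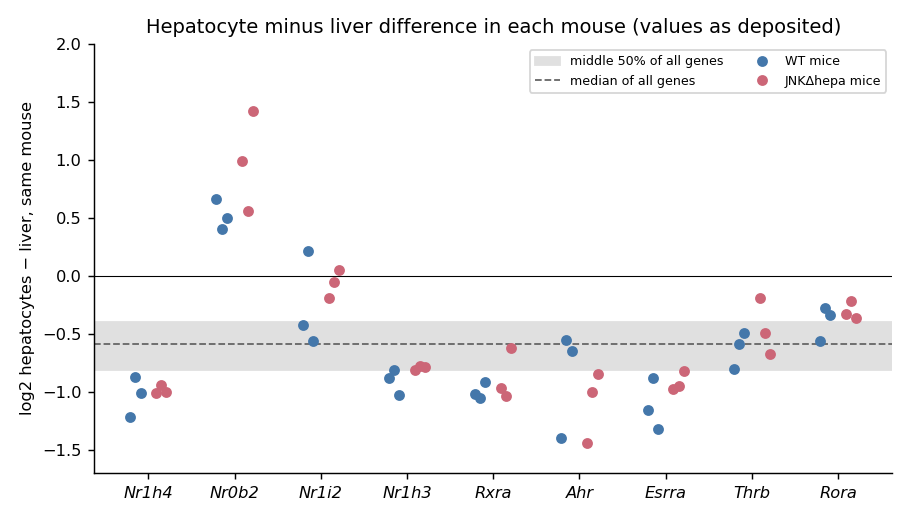
Log2 hepatocyte minus liver difference of each receptor gene in each of the 6 mice, from values as deposited; blue points are WT and red points JNKΔhepa mice, the dashed line is the median of all genes (−0.585) and the grey band their middle 50%. Nr0b2 is the gene above 0 in all 6 mice (0.40 to 1.42).

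Some markers of other cells also differed between the genotypes in liver, where most of the pathway calls were made. Of 8 cholangiocyte markers 2 rose in JNKΔhepa liver, Krt23 (0.75, limma adjusted p = 0.0102) and Muc1 (0.64, 0.0195), and 5 were above 0. Among all genes 0.925% were called there. On every liver array 6 to 7 of these 8 markers read below the array median. The log2 summed stellate signal was 11.57 to 11.62 in WT and 11.32 to 11.51 in JNKΔhepa liver, without overlap, and 8 of 12 stellate markers were below 0 (median −0.109). Of the Kupffer markers 9 of 12 were below 0 (median −0.0974), of the lymphocyte markers 7 of 9 (median −0.16) and of the endothelial markers 3 of 12 (median 0.113), and the summed signals of these lists and of the cholangiocyte list overlapped between the genotypes. The part of these shifts in the pathway calls was not tested.

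The genes that these receptors control or work with were read from 9 lists, 165 measured genes in all, with some members in more than 1 list. The lists were drawn from textbook knowledge, but earlier results of these data were known. Counts of calls on them are therefore descriptions and not independent support. Of 33 other nuclear receptor genes, Rxrg, which encodes a further retinoid X receptor, rose in JNKΔhepa liver from 6.33, 6.03 and 6.08 to 6.91, 6.90 and 6.71 (log2 difference 0.69, SE 0.119, limma adjusted p = 0.0148). Its arrays did not overlap between the genotypes. In hepatocytes 0 of the 33 passed limma, and the smallest p was that of Hnf4a, a receptor of hepatocyte identity (0.31, adjusted p = 0.214). The list medians were 0.0139 in liver and −0.0471 in hepatocytes. The call for Rxrg was lost without WT replicate 2 (0.0709) and without JNKΔhepa replicate 1 (0.0729) or 2 (0.0686) of liver, in adjusted p. Hnf4a passed without hepatocyte WT replicate 2 (limma adjusted p = 0.0473), while over the single-array omissions its adjusted p reached 0.487.

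Among 19 receptor partners and coregulators, Ppargc1a, the coactivator that works with ERR-alpha and other receptors, fell in JNKΔhepa hepatocytes. It read 7.46, 7.15 and 7.57 in WT against 6.45, 6.23 and 6.47 in JNKΔhepa (log2 difference −1.01, SE 0.157, limma adjusted p = 0.00919), while its liver arrays overlapped. The interaction for Ppargc1a was −1.02 (adjusted p = 0.358), so the preparations were not shown to differ. In liver 0 of the 19 passed, and the smallest p was that of Hsp90aa1, a chaperone that holds AHR in the cytoplasm (−0.39, adjusted p = 0.26). The list medians were −0.00339 in liver and −0.00501 in hepatocytes. The hepatocyte call for Ppargc1a was lost without WT replicate 3 (adjusted p = 0.0518) or JNKΔhepa replicate 2 (0.0564).

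Of 21 FXR and SHP target genes, 2 rose in JNKΔhepa liver, where 0.925% of all genes were called. Cyp8b1, the sterol 12-alpha-hydroxylase of bile acid synthesis, read 10.27, 10.07 and 9.92 in WT against 10.54, 10.59 and 11.02 in JNKΔhepa liver (log2 difference 0.63, adjusted p = 0.0403). Scarb1, the HDL receptor, read 9.95, 9.81 and 9.91 in WT against 10.40, 10.42 and 10.24 in JNKΔhepa (0.46, adjusted p = 0.05, just under the threshold before rounding). For both genes all 3 JNKΔhepa livers read above all 3 WT livers. Cyp7a1, the rate-limiting enzyme of bile acid synthesis, named after its values were seen, had differences of 0.44 in liver (adjusted p = 0.474) and 0.69 in hepatocytes (0.209). In hepatocytes 0 of the 21 passed, with Scarb1 at 0.42 (adjusted p = 0.0706). Of the 21 genes, 16 were above 0 in liver and 17 in hepatocytes, with medians of 0.107 and 0.103. Over all genes, 10229 of 18820 were above 0 in liver and 9304 in hepatocytes, with medians of 0.0155 and −0.0018. The list joins targets of FXR with those of the repressor SHP, so these counts give no direction for the pathway.

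Of 26 PXR and CAR targets, Slco1a4, an organic anion transporter, rose in liver from 8.44, 8.27 and 8.76 to 8.98, 9.60 and 9.24 (log2 difference 0.78, adjusted p = 0.0339). Alas1, the first enzyme of heme synthesis, rose in hepatocytes from 9.09, 9.33 and 9.15 to 10.08, 10.25 and 10.34 (1.03, adjusted p = 0.0239). Alas1 read 10.21, 10.78 and 11.24 in WT against 10.28, 10.26 and 10.13 in JNKΔhepa liver, where the genotypes overlapped. Its interaction of 1.55 had a limma adjusted p of 0.182. Without single arrays that adjusted p ran from 0.0059, without liver WT replicate 1, to 0.478. The list medians were −0.00579 and 0.0698. Of 17 LXR targets 0 passed in either preparation. The smallest p in liver was that of Srebf1, the lipogenic regulator (−0.92, limma adjusted p = 0.119). Without single arrays this adjusted p ran from 0.0244, without JNKΔhepa replicate 2, to 0.289. Without JNKΔhepa replicate 3 the Srebf1 difference shrank to −0.54 (adjusted p = 0.185). In hepatocytes the smallest p was that of Mylip, the degrader of the LDL receptor (−0.40, adjusted p = 0.187). Of 8 AHR targets 0 passed. The smallest p was that of Cyp1b1 in liver (0.36, below the array median on all 6 livers, adjusted p = 0.209) and of Nfe2l2 in hepatocytes (−0.44, adjusted p = 0.0755). With the mean of its probe sets, the liver difference of Cyp1b1 was 0.098 (limma adjusted p = 0.78).

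Acadm, the medium-chain acyl-CoA dehydrogenase, was the 1 gene of 17 on the ERR-alpha list that passed in liver. It read 10.67, 10.75 and 10.81 in WT against 11.12, 11.26 and 11.24 in JNKΔhepa (log2 difference 0.46, adjusted p = 0.0125). In hepatocytes 0 of the 17 passed, with Acadm at 0.33 (adjusted p = 0.0725). Esrra itself is on this list, Thrb on the thyroid hormone list and Nr1h3 on the LXR list. The ERR-alpha list had 14 of 17 genes above 0 in liver (median 0.0591) and 9 in hepatocytes (median 0.000336), against 10229 of 18820 genes (median 0.0155) and 9304 of 18820 (median −0.0018) over all genes.

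Of 19 thyroid hormone receptor targets, Gpd2, the mitochondrial glycerophosphate dehydrogenase, and Fgf21, a liver hormone of fasting, rose in both preparations. Gpd2 read 7.11, 7.14 and 7.35 in WT against 7.83, 7.88 and 7.80 in JNKΔhepa liver (0.64, adjusted p = 0.0048), and 6.89, 7.15 and 7.05 against 7.52, 7.53 and 7.53 in hepatocytes (0.50, adjusted p = 0.0221). Fgf21 rose by a log2 difference of 0.77 in liver (adjusted p = 0.0373) and of 0.85 in hepatocytes (adjusted p = 0.0233). All 3 WT livers read below the array median for Fgf21, so the size of its liver difference is not exact. The list medians were 0.0064 and 0.0669. Of 19 ROR targets, Plin2, a lipid droplet coat protein (10.40, 10.61 and 10.56 in WT, 11.14, 10.95 and 11.19 in JNKΔhepa liver; 0.57, adjusted p = 0.0129), Fgf21 and Cyp8b1 rose in liver and Fgf21 in hepatocytes, with medians of 0.00997 and 0.107. On these 9 lists 0 genes passed the interaction. There the smallest p on each list belonged to Rxrg (adjusted p = 0.627), Ppargc1a, Cyp8b1 (0.658), Alas1, Mylip (0.582), Nfe2l2 (0.578), Cs (0.627), G6pc (0.596) and Plin2 (0.398).

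Of these 12 calls, 11 were lost without some single array, and that of Gpd2 in liver was not. The liver call of Cyp8b1 was lost in 9 of 12 omissions (adjusted p 0.0535 to 0.117), that is without any liver array, hepatocyte WT replicate 1 or hepatocyte JNKΔhepa replicate 2 or 3. That of Scarb1 was lost in 10 (0.0518 to 0.171), all but hepatocyte JNKΔhepa replicates 1 and 3, and also with the mouse as a random block (0.051). Those of Slco1a4 (0.051 to 0.136) and Fgf21 (0.0539 to 0.149) were lost without liver WT replicate 1 or 2, liver JNKΔhepa replicate 2 or 3, hepatocyte WT replicate 3, and hepatocyte JNKΔhepa replicate 2 for Slco1a4 or 3 for Fgf21. That of Acadm was lost without liver WT replicate 1 (0.0675) or JNKΔhepa replicate 2 (0.0609) or 3 (0.0651), and that of Plin2 without WT replicate 1 (0.0717) or JNKΔhepa replicate 1 (0.0681) or 3 (0.0667). The hepatocyte calls of Alas1 (0.0918 to 0.114), Gpd2 (0.0617 to 0.0921) and Fgf21 (0.06 to 0.112) were each lost without WT replicate 1 or 3 or JNKΔhepa replicate 2 or 3 of hepatocytes. The differences themselves stayed between 0.42 and 0.516 for Scarb1, 0.478 and 0.722 for Cyp8b1, 0.622 and 0.799 for Slco1a4, and 0.578 and 0.831 for Fgf21 in liver in the omissions that lost the call. In the same way they stayed between 0.427 and 0.447 for Acadm, 0.508 and 0.545 for Plin2, and 0.632 and 0.66 for Rxrg in liver. In hepatocytes they stayed between 0.974 and 1.02 for Alas1, 0.43 and 0.51 for Gpd2, 0.737 and 0.909 for Fgf21, and −0.931 and −0.921 for Ppargc1a. With only the 6 liver arrays in the fit, the liver calls of Cyp8b1, Scarb1, Slco1a4, Acadm, Fgf21 and Plin2 were lost (0.0538 to 0.123), and with only the 6 hepatocyte arrays that of Gpd2 in hepatocytes (0.0979). Other scalings lost the liver calls of Cyp8b1, Scarb1 and Fgf21 (0.0502 to 0.0783). All these p-values are limma's, adjusted over all genes.

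**Figure D4:**
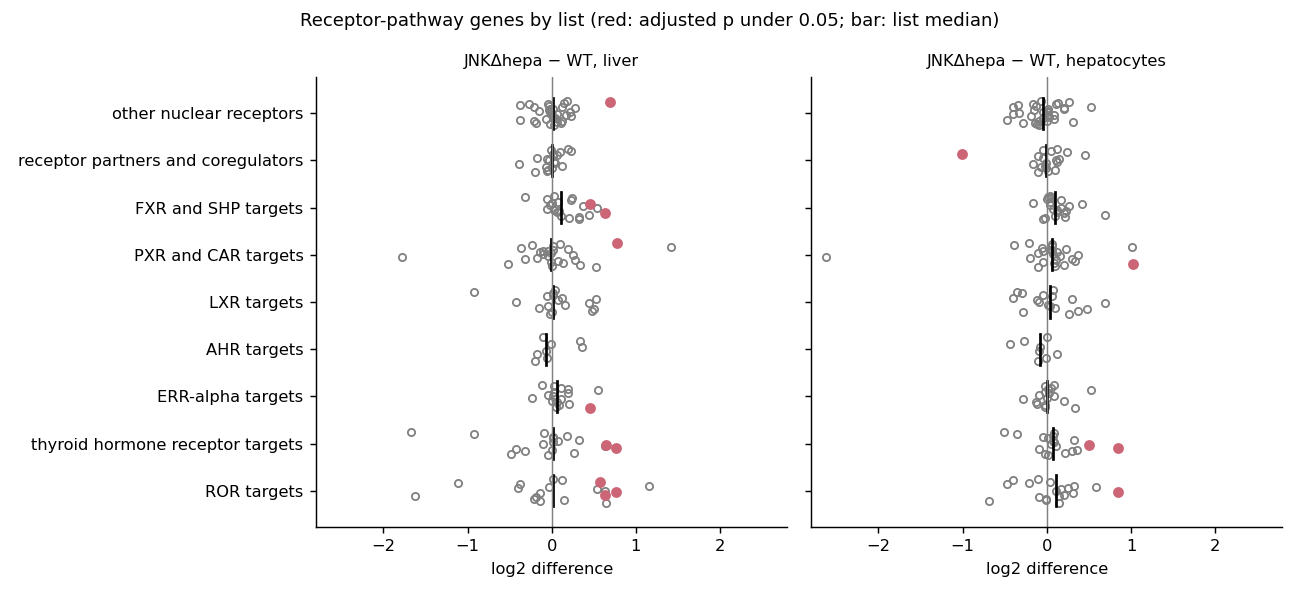
Log2 difference (JNKΔhepa minus WT) of every measured gene on the 9 receptor-pathway lists in liver (left) and hepatocytes (right); each circle is a gene, red marks an adjusted p under 0.05 and black bars are list medians. Most genes lie near 0, and the list medians range from −0.0625 to 0.107 in liver and from −0.0852 to 0.107 in hepatocytes.

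For the 3 receptor genes with the smallest p in a genotype comparison, the genes with the most similar pattern were found over the 12 arrays of 6 mice, after the mean of each preparation was removed. These values are descriptions without a test, and the arrays share mice and normalisation. Rxra ran closest with Olfr1174 (Pearson r = 0.956), Slc35b2 (0.932) and Commd5 (0.927). The mean level of Olfr1174, 3.63, lies below the medians of the liver arrays and above those of the hepatocyte arrays. Nr0b2 ran closest with Gm839 (0.894), Tas2r143 (0.889) and Pcdh7 (0.881), whose mean levels of 3.05, 2.68 and 2.89 lie below the medians of all arrays. Esrra ran closest with Traf5 (0.932), Slc37a1 (0.87) and Mtss1 (0.868).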

How the data were processed

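Values came from 12 arrays, 1 per sample, of whole liver and primary hepatocytes. The deposited values are log2 expression per probe set, made by the authors with RMA, per the submitters' processing notes; its version, the program and the probe annotation behind it were not given in the labels or notes. The log base was read from the range of the values. There were 35556 probe sets and 0 missing values; the platform annotation gave 1 symbol to 21218 of them, several to 1881 and none to 12457. The probe set with the highest mean stood for each of 18820 genes. Array medians differed between the preparations, which appear to have been normalised separately. Arrays carry no depth, and their number limits the precision.

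Group means were fitted with limma 3.58.1 (R 4.3.3) to all 12 arrays, with 8 residual and 4.76 prior degrees of freedom, two-sided, Benjamini-Hochberg adjusted over all genes, threshold 0.05, without a filter on dim probe sets. Intervals are 95% intervals of this fit, not adjusted for the number of genes. The 3 replicates of a group are separate mice. The script was tested on simulated data. Same-numbered liver and hepatocyte samples come from the same mouse, per the labels; their deviations from the group means correlated at −0.0133 to 0.0982 over genes. WT and JNKΔhepa samples of a number are different mice. Promoters are from RefSeq (GRCm38.p6). Figures used Python 3.11.15 and matplotlib 3.10.9.

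The receptor genes, the pathway lists and the marker lists were chosen with earlier results of these data known. Besides the receptor genes, the genes named were up to 4 called genes per pathway list and comparison, taken by smallest p (where nothing was called, the single smallest), and the 3 most similar patterns of 3 receptor genes. Mapk8 and Mapk9 were named as a check of the labels. Outside this rule, C1qb, Krt23 and Muc1 were named as marker genes that passed. Cyp7a1, Ifi44l and Plet1 were named after their values were seen. Alternatives covered the probe-set rule, the arrays in the fit, scaling, a filter, array weights, the prior, blocks and single arrays left out. Centring on the genes tested was added after the data were seen.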

Additional observations from a re-analysis of the deposited data

Results flagged for a closer look

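The genotype difference itself differed between hepatocytes and liver in 2 of 18820 genes, neither of them a receptor gene; both were named after their values were seen. For Ifi44l, an interferon-induced gene, the hepatocyte minus liver difference was −1.77 on the log2 scale (limma adjusted p = 0.00365). All of its WT arrays and 2 of 3 JNKΔhepa hepatocyte arrays read below the array medians, so this size is not exact. For Plet1, an epithelial surface protein gene, it was −1.82 (adjusted p = 0.0147), with all 3 JNKΔhepa and 2 of 3 WT hepatocyte arrays below the array median, so this size is not exact either. The call for Plet1 was lost without liver WT replicate 1 (0.0564), liver JNKΔhepa replicate 1 (0.0743) or 2 (0.0805), or hepatocyte JNKΔhepa replicate 2 (0.0833) or 3 (0.0781).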

How the results depend on the processing

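None of the 9 receptor genes passed a genotype comparison or the interaction under any of the alternatives run, single arrays left out included (lowest limma adjusted p 0.104 in liver, 0.221 in hepatocytes, 0.606 in the interaction). Genes past the threshold numbered 174 in liver (408 with array weights; 80 to 225 without single arrays), 158 in hepatocytes (77 with only the 6 arrays of the preparation; 61 to 387 without single arrays) and 2 in the interaction (4 with array weights, 4 with arrays centred on the genes tested; 1 to 7 without single arrays). With the mouse as a random replicate block the counts were 169, 162 and 2, and with the mouse as a fixed block 2 in the interaction. With the replicate number as a block, which joins different mice across the genotypes, they were 131 and 187. The blocks changed the calls of no receptor gene. Besides the Scarb1 liver call under the random block, the blocks ended these pathway calls: with the number as a block, the liver calls of Cyp8b1, Scarb1, Slco1a4 and Fgf21 were lost (adjusted p 0.0738, 0.071, 0.0658 and 0.0527).

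Differences close to 0 changed sign. Nr1i2 in liver was −0.015, −0.01 and −0.048 and Esrra in liver −0.013, −0.063 and −0.046 with arrays centred on all probe sets, quantile normalised and centred on the genes tested, and Nr0b2 in hepatocytes was −0.005 with array weights. Without single arrays the liver difference ran from −0.174 to 0.139 for Nr1i2 and from −0.056 to 0.087 for Esrra, and the hepatocyte difference from −0.054 to 0.072 for Nr0b2, −0.232 to 0.075 for Ahr, −0.024 to 0.177 for Thrb and −0.102 to 0.01 for Rora. The interaction of Nr1h4 ran from −0.034 to 0.125.

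Hepatocytes minus liver, 8 receptor genes passed as deposited and 5 did with either centring (8 to 9 without single arrays). With the mouse as a random or a fixed block 8 passed as well, and 17420 and 17423 of all genes did. Genes past the threshold numbered 17371, against 8481 after quantile normalisation and 10103 with the filter on dim probe sets, which tested 10724 genes. The sign turned with arrays centred on all probe sets for Nr1i2 (0.693), Nr1h3 (0.007), Thrb (0.316) and Rora (0.505), after quantile normalisation for Nr1i2 (0.417), Thrb (0.087) and Rora (0.204), and with arrays centred on the genes tested for Nr1h4 (0.02), Nr1i2 (0.868), Nr1h3 (0.182), Rxra (0.092), Ahr (0.05), Esrra (0.011), Thrb (0.491) and Rora (0.68). These settings move the median of all genes from −0.585 to 0.27, 0.0161 and 0.445. Called genes were higher in 0.84% as deposited, 82.7% and 89.9% with the centrings and 51.2% after quantile normalisation. The dim filter, the trended and robust prior or centring on the genes tested brought JNKΔhepa calls in hepatocytes for Scarb1 (adjusted p 0.0311 to 0.0486), Acadm (0.019 and 0.0437) and Nfe2l2 (0.0384). Without liver WT replicate 2, Nr1i2 was called lower (−0.25, adjusted p = 0.0109). The causes of these changes were not tested.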
